A study of Arabidopsis thaliana with 15 samples.

Results

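EXO, ARL and BIM1 are Arabidopsis genes known for growth under brassinosteroids, and their transcripts were followed in sorted root cells with and without brassinolide (BL, the most active brassinosteroid). The members were every probe set that the array annotation assigns to EXO, ARL or BIM1 alone, which gave 3 of the 22746 probe sets tested, 1 for each gene. The samples were protoplasts of primary roots of 6-day-old seedlings, released by a 2 h digestion and sorted by fluorescence, with 1 microarray per sample and 15 arrays in 7 groups. Stele cells, sorted with the pWOL:GFP marker and called WOL here, were collected after 0.5, 1, 2 and 4 h on medium with 10 nM BL and as untreated control, with 2 arrays (A and B) per group. Provascular cells, sorted with the pAtHB15:YFP marker and called ATHB15 here, were collected after 2 h of 10 nM BL (2 arrays, 1 and 2) and as untreated control (3 arrays, 1 to 3). The promoter of each marker defines the cells, the labels name no mock transfer matched in time and no ecotype or other allele, and nothing states whether arrays of a group came from separate cultures, so p-values may reflect no more than the spread of technical repeats.

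Brassinosteroids are steroid hormones of plants that are perceived at the cell surface by the receptor kinase BRI1 and its relatives. The signal inactivates the kinase BIN2, which lets the transcription factors BES1 and BZR1 act on genes of cell elongation and on genes of hormone synthesis. In roots the hormone is known for its effect on meristem size, cell elongation and vascular patterning. BIM1 is a basic helix-loop-helix transcription factor that binds DNA together with BES1. EXO (EXORDIUM) is an extracellular protein that promotes cell expansion, and ARL (ARGOS-LIKE) is a membrane protein that promotes cell expansion downstream of the hormone.

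Values are signals on a linear scale of arbitrary units, and tested differences are on the scale log2(signal + 16). A change was called at a Benjamini-Hochberg adjusted p under 0.05 over all probe sets, and limma borrows the spread of all 7 groups. The probe sets were 255064_at for EXO (AT4G08950), 267230_at for ARL (AT2G44080) and 250569_at for BIM1 (AT5G08130). All 3 were called present on 15 of 15 arrays, so detection limited none of the values of these 3 genes. Signals of different probe sets are not compared with each other. An array had present calls for 49.5% to 59.6% of its probe sets, and the WOL control B array stood between the other WOL arrays and the ATHB15 arrays on the first principal component (21.4, against -98.4 to -16.2 and 59.8 to 108). Of 24 marker genes, the annotation used here names a probe set for 3 (0 of 4 root cap genes). PHV, a gene of vascular identity, was present on all 15 arrays, and JKD, a ground tissue gene, was absent on all 15. EXPA7, a root hair gene of the epidermis, was present on 9 of 10 WOL arrays and 2 of 5 ATHB15 arrays. No probe set here is named for the genes whose promoters drove the 2 sorting markers. In such bulk RNA, fewer cells of a type and less RNA per cell cannot be told apart.

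**Figure D1:**
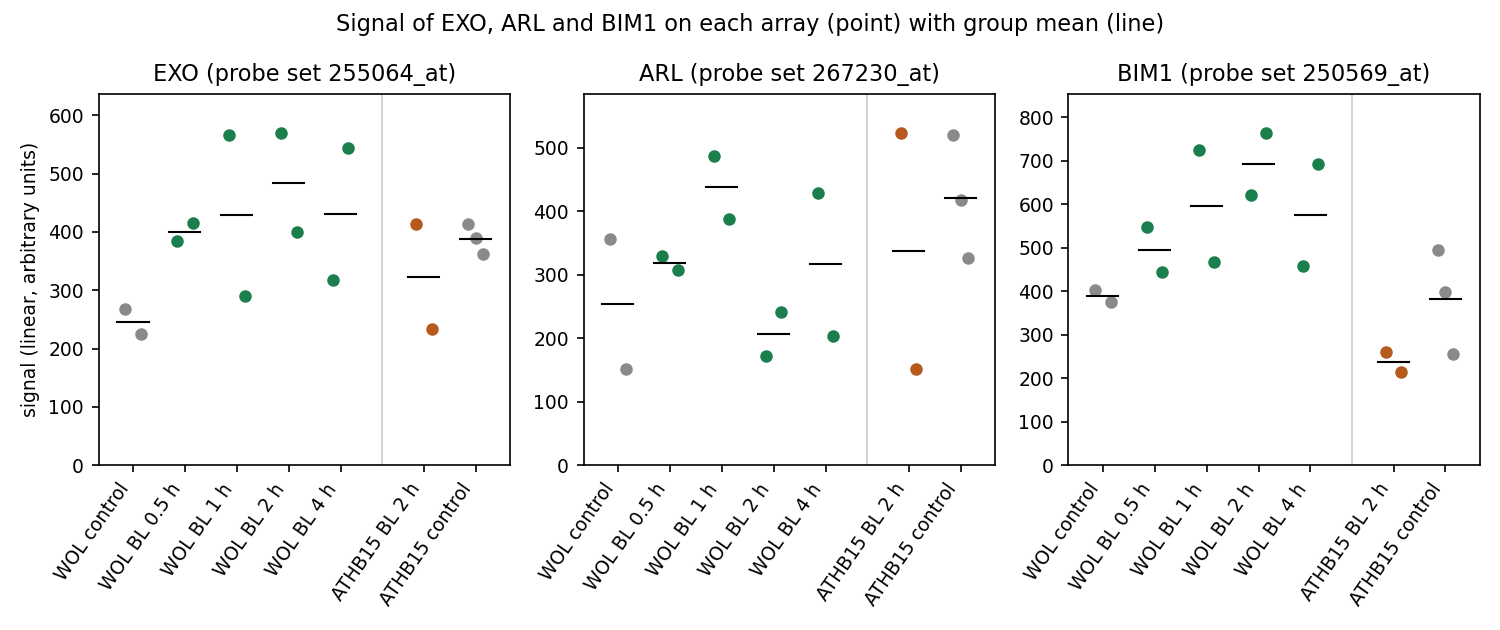
Signal of the EXO, ARL and BIM1 probe sets (y axis, linear arbitrary units) on each of the 15 arrays (points; A or 1 leftmost in a group), by group (x axis), with the group mean as a line; WOL groups stand left and ATHB15 groups right of the grey line. All 8 WOL BL arrays lie above both WOL control arrays for EXO and BIM1, and the ARL arrays of WOL control and of ATHB15 BL 2 h lie far apart.

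The WOL course asks how the 3 transcripts stood in stele cells at each time after BL. EXO was higher than in both controls on every BL array. Its signal was 384.3 and 415.3 after 0.5 h, 566.7 and 290.7 after 1 h, 569.2 and 400.4 after 2 h, and 317.0 and 543.4 after 4 h, against 267.5 and 225.0 in the WOL control. The lowest of the 8 BL arrays (290.7, at 1 h) exceeded the higher control (267.5), so the groups did not overlap. Over all 4 times the log2 difference of EXO was 0.75 ± 0.31 (SE, 8 BL and 2 control arrays), with a 95% interval of 0.08 to 1.42. This is a ratio of 1.68 of signal + 16. It did not pass the threshold (adjusted p = 0.473 over all probe sets, limma). The differences for 0.5, 1, 2 and 4 h were 0.67, 0.69, 0.92 and 0.72, each with an SE of 0.40. Without WOL control B, the control that stands apart, the difference over all times was 0.63. Single arrays moved 2 of these values. At 1 h it was 0.23 when array A was left out and 1.16 when array B was, and at 4 h it was 1.10 and 0.35.

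BIM1, the partner of BES1, showed the same arrangement of arrays. Its signal was 546.4 and 442.9 after 0.5 h, 725.3 and 467.0 after 1 h, 621.3 and 762.5 after 2 h, and 457.6 and 692.5 after 4 h, against 402.6 and 375.9 in the WOL control. Again the lowest BL array (442.9, at 0.5 h) lay above the higher control (402.6). The mean signal was 495 ± 73.2 after 0.5 h, 596 ± 183 after 1 h, 692 ± 99.8 after 2 h, and 575 ± 166 after 4 h, against 389 ± 18.9 in the control (SD, n = 2 each), so the means were in order up to 2 h while neighbouring times overlapped. The log2 difference from the control was 0.33, 0.56, 0.80 and 0.52 at the 4 times, each with an SE of 0.37. Over all times it was 0.55 ± 0.29 (SE, 8 and 2 arrays), with a 95% interval of -0.08 to 1.18 (adjusted p = 0.533, limma), and 0.50 without WOL control B. Leaving out 1 array moved the value at 0.5 h to 0.18 (WOL BL 0.5 h A), at 1 h to 0.25 (WOL BL 1 h A) or 0.87 (WOL BL 1 h B), and at 4 h to 0.81 (WOL BL 4 h A) or 0.23 (WOL BL 4 h B).

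ARL did not keep a side of the control over the course. Its signal was 330.2 and 308.4 after 0.5 h, 487.8 and 388.4 after 1 h, 172.2 and 242.3 after 2 h, and 429.3 and 204.3 after 4 h, against 356.2 and 151.2 in the WOL control. At 1 h both BL arrays exceeded both controls, and at the other times all BL arrays lay between the 2 controls except WOL BL 4 h A. The log2 differences for 0.5, 1, 2 and 4 h were 0.43, 0.86, -0.18 and 0.33, each with an SE of 0.53 (adjusted p = 0.811, 0.760, 0.973 and 0.890, limma). Over all times the difference was 0.36 ± 0.42 (SE, 8 and 2 arrays), with a 95% interval of -0.54 to 1.26. The controls differed 2.36-fold in ARL signal, a log2 gap larger than that of 92.6% of the probe sets present on both. Without WOL control B the differences were -0.15, 0.28, -0.76 and -0.25, and without WOL control A they were 1.00, 1.43, 0.40 and 0.91. At 2 h the difference was 0.05 when BL array A was left out and -0.41 when B was, and at 4 h it was -0.18 and 0.84. The sign of ARL at 0.5, 2 and 4 h thus rested on single arrays.

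Of the 3 members, 2, 3, 2 and 2 at the 4 times in order had both BL arrays above both controls. The same held for 18.3%, 13.9%, 12.1% and 13.1% of all probe sets. Over all 8 BL arrays it held for EXO and BIM1, and for 1.9% of all probe sets. The members were chosen with earlier results of these data known, so these shares do not measure how unusual they are. The 4 comparisons share the 2 control arrays, so they do not count as separate evidence. By adjusted p, 0 of 3 members were called in limma at any time, where 0% of all probe sets were. At an unadjusted p under 0.05, 2 members stood out at 2 h, EXO and BIM1, where 6.62% of all probe sets did, and 0 did at the other 3 times (9.04%, 6.64% and 8.37%). Over all times together 1 member, EXO, did, and 9.98% of all probe sets. The test for any change over the course gave adjusted p = 0.925 for EXO, 0.929 for ARL and 0.928 for BIM1 (limma), with 0% of all probe sets called and 5.72% at an unadjusted p under 0.05. The median difference of the members was 0.43, 0.69, 0.80 and 0.52 at the 4 times, against a median over all probe sets of -0.08, -0.09, -0.11 and -0.05.

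Signs of RNA quality and the epidermal marker are given beside these values. Their BL and control arrays overlapped over the whole course, but not at every time. The 3' to 5' signal ratio of the GAPDH control probe sets was 1.24 to 3.84 on the WOL BL arrays against 2.71 and 4.66 in the WOL control, and the UBQ ratio was 2.91 to 6.50 against 5.07 and 7.43. All GAPDH ratios at 0.5 and 1 h (1.24 to 2.23) lay below both controls. So did the UBQ ratios at 1 and 2 h (2.91 to 4.90). The actin ratio was 17.8 to 26.1 at 0.5, 1 and 2 h and 39.8 and 48.9 at 4 h, against 28.4 and 48.3 in the WOL control. EXPA7 had 525.2 and 587.0 after 0.5 h, 597.1 and 141.7 after 1 h, 492.1 and 228.6 after 2 h, and 264.3 and 126.7 after 4 h, against 294.6 and 88.5 in the WOL control. EXPA7 passed the threshold at none of these times (adjusted p = 0.566, 0.837, 0.864 and 0.977, limma). While 4 of the 8 BL arrays lay between the controls, both 0.5 h arrays lay above them. In a fit with the GAPDH ratio as covariate, the difference over all times was 0.79 for BIM1 and 0.66 for ARL, and with the UBQ ratio that of EXO was 1.08. At single times, the GAPDH ratio gave 0.81 for BIM1 and 1.04 for ARL at 0.5 h and 0.09 for ARL at 2 h, and the UBQ ratio gave 1.26 for EXO at 1 h. The part of EXPA7-expressing cells in these values was not tested.

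Within the BL course, the times were also compared without the control arrays. EXO differed by 0.14 ± 0.28 and BIM1 by 0.21 ± 0.26 between 2 and 4 h and 0.5 and 1 h (SE, 4 arrays each), and ARL by -0.57 ± 0.38, with a 95% interval of -1.37 to 0.24 (adjusted p = 0.972, limma). The 3 values did not pass the threshold, 0% of all probe sets did, and 0 members and 5.15% of all probe sets had an unadjusted p under 0.05. ARL was below 250 on both 2 h arrays, 172.2 and 242.3, against 487.8 and 388.4 on the 1 h arrays. Its difference was -0.31 without WOL BL 4 h B and -0.90 with the GAPDH ratio in the fit. The value of EXO ran from -0.09 to 0.37 and that of BIM1 from 0.06 to 0.37 when 1 BL array was left out.

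**Figure D2:**
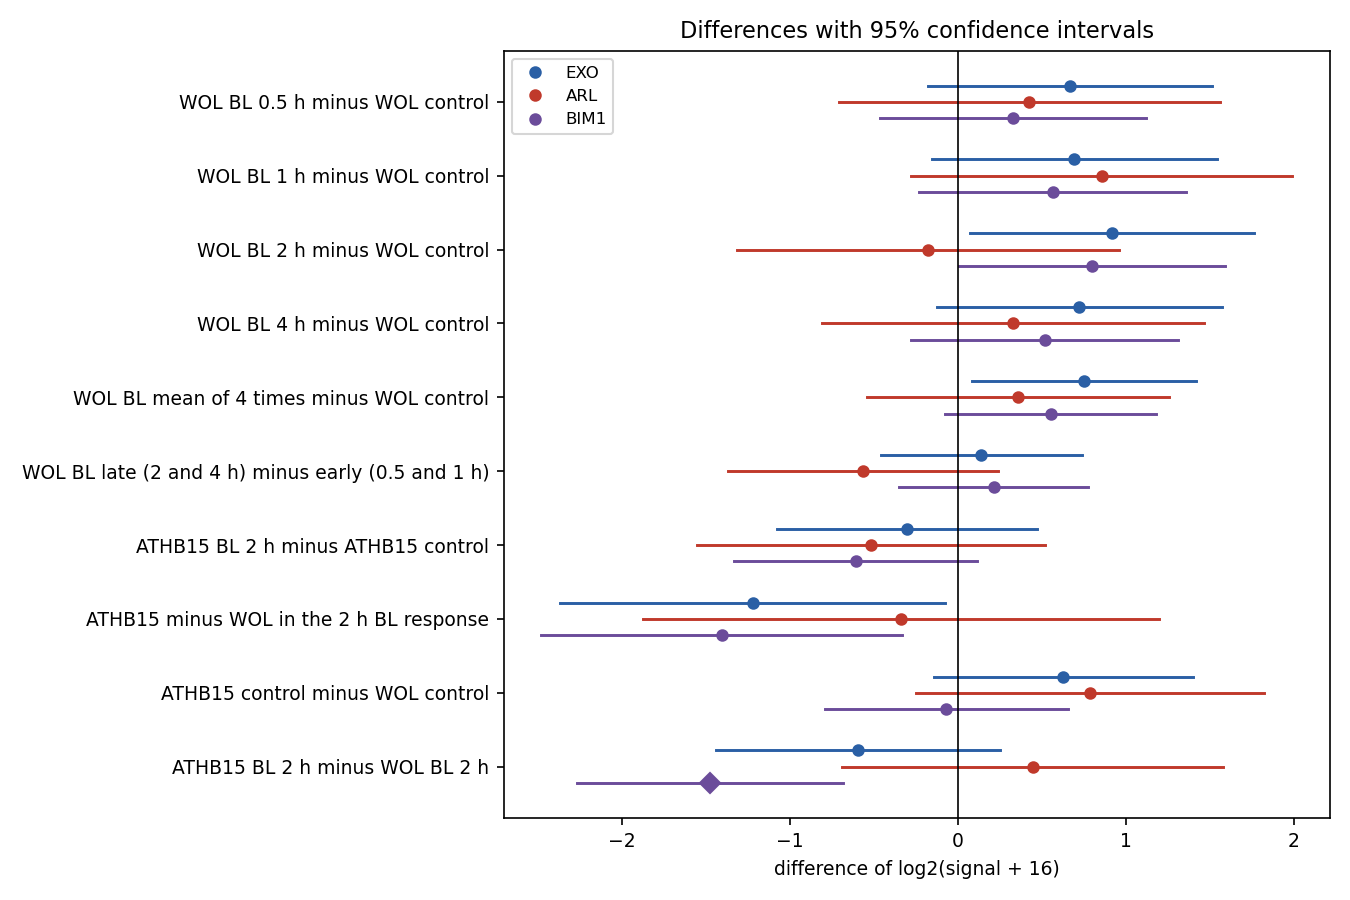
Difference of log2(signal + 16) (x axis) in each of 10 comparisons (y axis) for EXO, ARL and BIM1, with 95% confidence intervals from limma over all 15 arrays. The diamond marks the value past the threshold, BIM1 in ATHB15 BL 2 h minus WOL BL 2 h at -1.48, and the intervals of ARL are the widest of the 3 genes in every comparison.

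The provascular cells ask whether the transcripts stood differently after 2 h of BL in the inner cells marked by AtHB15. None of the 3 was higher in BL-treated ATHB15 cells than in their control by its mean, where 47.7% of all probe sets had a difference above 0. BIM1 had 260.6 and 215.1 in ATHB15 BL 2 h, against 493.8, 398.5 and 255.8 in the ATHB15 control. The lowest control lay just below the higher BL array, so the groups overlapped. The log2 difference was -0.61 ± 0.34 (SE, n = 2 and 3; adjusted p = 0.467, limma). EXO had 413.3 and 233.2 in ATHB15 BL 2 h, against 413.1, 389.8 and 362.8 in the ATHB15 control. ATHB15 BL 1 was level with the highest control and ATHB15 BL 2 was below all 3, and the difference was -0.30 ± 0.36 (adjusted p = 0.794, limma). Leaving out BL array 1 gave -0.70, and leaving out BL array 2 gave 0.09.

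ARL had 523.1 and 151.1 in ATHB15 BL 2 h, against 519.7, 417.4 and 326.7 in the ATHB15 control. The 2 BL arrays lay on either side of all 3 controls, 3.46-fold apart, a log2 gap larger than that of 99.5% of the 11267 probe sets present on both arrays. The difference of -0.52 ± 0.48 (adjusted p = 0.719, limma) changed sign with 1 array and stood at -1.36 with array 1 left out and 0.33 with array 2 left out. In this comparison 0 of 3 members and 1.11% of all probe sets were called in limma, and 0 members and 13.7% of all probe sets had an unadjusted p under 0.05. The UBQ ratio was 9.07 and 5.99 in ATHB15 BL 2 h, against 4.01 to 4.85 in the ATHB15 control, and the GAPDH ratio was 2.23 and 1.09 against 1.75 to 3.38. In a fit with the UBQ ratio as covariate, the EXO difference was -0.86, and with the GAPDH ratio the differences were -0.17 for EXO, -0.26 for ARL and -0.41 for BIM1. EXPA7 had a mean signal of 30.6 in ATHB15 BL 2 h and 41.8 in the ATHB15 control, and was absent on 1 of 2 BL arrays and 2 of 3 controls.

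**Figure D3:**
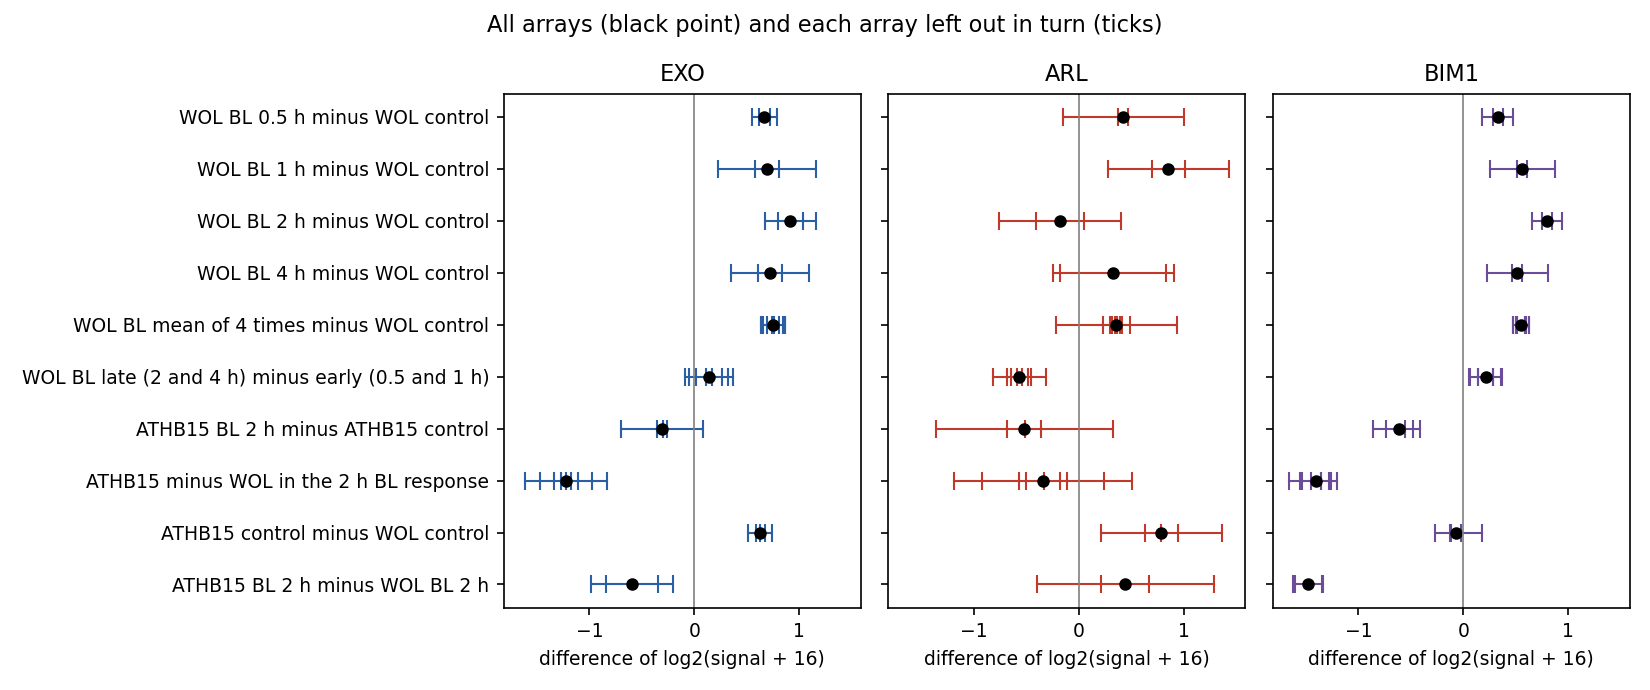
Difference of log2(signal + 16) (x axis) in each of 10 comparisons (y axis) with all arrays (black points) and with each array of the compared groups left out in turn (ticks), for EXO, ARL and BIM1. EXO and BIM1 stay above 0 in every WOL BL comparison with the WOL control, and ARL crosses 0 in all of these but 1 h. For EXO and BIM1 every WOL BL array lay above both controls, so leaving out 1 array could not turn these signs.

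Whether the 2 h response differed between the lines was tested directly as the ATHB15 change minus the WOL change. For BIM1 the 2 h value was -0.61 in the ATHB15 line and 0.80 in the WOL line, which differ by -1.41 ± 0.50 (SE; 95% interval -2.48 to -0.33). For EXO it was -0.30 and 0.92, a difference of -1.22 ± 0.54 (95% interval -2.37 to -0.08). Neither passed the threshold (adjusted p = 0.273 for BIM1 and 0.380 for EXO, limma), where 0.127% of all probe sets did. At an unadjusted p under 0.05 there were 2 of 3 members, BIM1 and EXO, and 12% of all probe sets. ARL differed by -0.34 ± 0.72, with a 95% interval of -1.88 to 1.20, and its sign was turned by leaving out WOL control B (0.24) or ATHB15 BL 2 (0.50). Over every array left out in turn, the difference stayed between -1.66 and -1.21 for BIM1 and between -1.61 and -0.83 for EXO. A fit with the UBQ ratio gave -1.78 for BIM1, -2.16 for EXO and -0.77 for ARL.

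The call past the threshold was for BIM1 between the treated lines. At 2 h of BL it had 260.6 and 215.1 in ATHB15 cells, against 621.3 and 762.5 in WOL cells, so that every ATHB15 array lay below every WOL array. BIM1 was lower in ATHB15 cells by a log2 difference of -1.48 ± 0.37 (SE, n = 2 and 2; adjusted p = 0.0165, limma). In every comparison of levels between the lines, a difference and a batch shared by the arrays of 1 line cannot be told apart. Between these groups 1 of 3 members and 15% of all probe sets were called, 26.8% of all probe sets lay below without overlap, and 1 member and 28.9% of all probe sets had an unadjusted p under 0.05. Leaving out WOL BL 2 h A (adjusted p = 0.0592), WOL BL 2 h B (0.109) or ATHB15 BL 2 (0.123) ended the call, as did adding the UBQ (0.0948) or the GAPDH ratio (0.0563) to the fit, and the limma adjusted p ran from 0.00953 to 0.123 over all alternatives. The difference stayed between -1.73 and -1.28 throughout. EXPA7 had 5.0 (called absent) and 56.1 in ATHB15 BL 2 h, against 492.1 and 228.6 in WOL BL 2 h (adjusted p = 0.0208, limma). PHV had 553.5 and 1051.3 in ATHB15 BL 2 h, on either side of 663.6 and 625.4 in WOL BL 2 h (adjusted p = 0.777, limma). Their part in the BIM1 difference was not tested. EXO differed by -0.59 ± 0.40 (adjusted p = 0.366, limma), a value of -0.20 with ATHB15 BL array 2 left out, -0.99 with array 1 left out, -0.35 with WOL BL array A left out and -1.18 with the UBQ ratio in the fit. ARL differed by 0.44 ± 0.53 (adjusted p = 0.654, limma), which turned to -0.40 with ATHB15 array 1 left out and stood at 1.29 with array 2 left out. It was 0.18 with the UBQ ratio and 0.70 with the GAPDH ratio in the fit.

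The untreated lines were set beside each other to see where the transcripts stood before BL. A difference of this kind and a batch shared by the arrays of 1 line cannot be told apart. EXO had 413.1, 389.8 and 362.8 in the ATHB15 control, against 267.5 and 225.0 in the WOL control. All 3 ATHB15 arrays lay above both WOL arrays, as for 13.3% of all probe sets, and the log2 difference was 0.63 ± 0.36 (SE, n = 3 and 2; adjusted p = 0.439, limma). It was 0.98 with the UBQ ratio in the fit and 0.90 with median centring, with adjusted p = 0.295 and 0.199 (limma). ARL differed by 0.79 ± 0.48 (adjusted p = 0.475, limma), with 0.21 when WOL control B was left out and 1.36 when A was. BIM1 differed by -0.07 ± 0.34 with a 95% interval of -0.79 to 0.65, a value that turned to 0.20 with median centring. In limma 0 of 3 members and 2.91% of all probe sets were called, and 0 members and 15.5% of all probe sets had an unadjusted p under 0.05. PHV had 882.4 to 1175.2 in the ATHB15 control, against 535.2 and 653.3 in the WOL control (adjusted p = 0.324, limma). EXPA7 had 2.2 to 87.3, against 294.6 and 88.5 (adjusted p = 0.217, limma). The part of these markers in the member differences was not tested.

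Ordered by mean log2 value over the 7 groups, BIM1 ran from WOL BL 2 h through 1 h, 4 h and 0.5 h to the WOL control, the ATHB15 control and ATHB15 BL 2 h. Neighbours overlapped at every step of that order except between WOL BL 0.5 h and the WOL control. EXO ran from WOL BL 2 h through 4 h, 1 h and 0.5 h to the ATHB15 control, ATHB15 BL 2 h and the WOL control, and all neighbours overlapped. ARL ran from WOL BL 1 h through the ATHB15 control, WOL BL 0.5 h, WOL BL 4 h, ATHB15 BL 2 h and the WOL control to WOL BL 2 h, again with all neighbours overlapping. EXO was highest and BIM1 was highest in the same group, and the ARL mean was lowest in it.

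Over the 10 WOL arrays, Pearson's r between EXO and BIM1 was 0.83 (permutation p = 0.00530) and Spearman's rho 0.72 (permutation p = 0.0237). Over the 12 relations computed, the adjusted values were 0.0636 and 0.285, not past the threshold. The permutations shuffled all 10 arrays without regard to group. Their p-values thus do not separate a relation within groups from differences between groups. Without the 2 arrays farthest from the median of EXO, which were both controls, r was 0.69. For ARL, r was -0.01 with EXO, and -0.47 without both controls. With BIM1 it was -0.02, and -0.36 without WOL BL 2 h A and WOL control B. The other 9 relations set the 3 members against EXPA7 and the GAPDH and UBQ ratios. The smallest adjusted permutation p among them was 0.367, for Spearman's rho of -0.62 between UBQ ratio and BIM1. The largest Pearson's r was 0.53 between EXPA7 and EXO (adjusted permutation p = 0.577), which was 0.16 without WOL BL 1 h A and WOL control B. Between UBQ ratio and BIM1, r was -0.41, and -0.65 without WOL BL 1 h B and WOL control B. The 5 ATHB15 arrays are too few for a correlation.

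**Figure D4:**
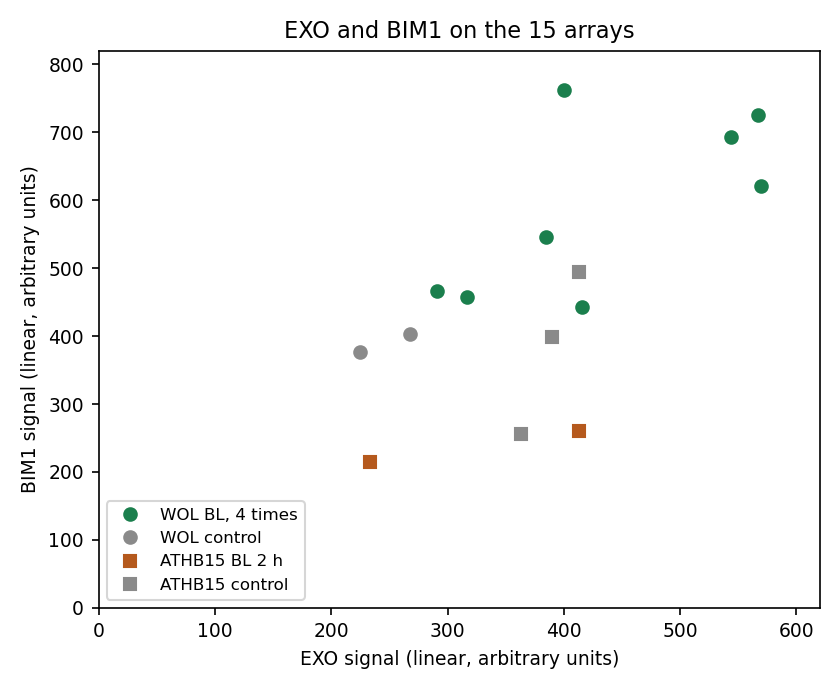
BIM1 signal (y axis) against EXO signal (x axis) on the 15 arrays, both on linear scales of arbitrary units; circles are WOL arrays, squares are ATHB15 arrays, and grey marks controls. The 2 WOL controls lie at the low end of the WOL arrays for both genes, and the ATHB15 BL 2 h arrays lie below all WOL arrays for BIM1 (215.1 and 260.6).

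The genes whose pattern was most like each member were named by Pearson's r of the log2 value among 6795 probe sets of 1 gene present on at least 8 arrays. Such r values share the arrays and are given as a description. Over the 15 arrays EXO was most like DRT100, a leucine-rich repeat protein gene (r = 0.89), followed by AT4G28650, AT2G47440, AT5G04270 and AT3G15410 (r = 0.82 to 0.77). The 95th percentile of r over all candidates was 0.42. Genes chosen as the highest of 6795 lie above this percentile by construction, for each member. DRT100 differed by 1.04 at 2 h in WOL cells and by -0.24 in ATHB15 cells. BIM1 was most like AT5G56350 (r = 0.95), the expansin-like gene EXLA2 (0.91), AT1G77020 (0.91), AT3G54120 (0.90) and AT5G23400 (0.89), against a 95th percentile of 0.71. These 5 genes differed from the control by 0.58 to 2.18 in WOL cells at 2 h and by -1.94 to -0.35 in ATHB15 cells, signs that their choice by r over the same arrays largely fixes. ARL was most like AT5G03560, AT5G55380, AT2G22720, AT5G18760 and AT5G13240 (r = 0.80 to 0.72), against a 95th percentile of 0.36.

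Over the 10 WOL arrays alone the leading genes were others, apart from AT3G15410 for EXO. EXO was most like GUT1, a gene of xylan synthesis (r = 0.95), AT3G15410 (0.94) and AT5G36290 (0.93). BIM1 was most like PRA1.B6, of the prenylated RAB acceptor family (0.92), PMM, the phosphomannomutase gene (0.92), and AT5G10780 (0.91). ARL was most like AT3G28200 (0.95), AT2G22900 (0.91) and AT1G59740 (0.90). The 95th percentile of r was 0.60 for EXO, 0.56 for BIM1 and 0.67 for ARL, which the leading genes again exceed by their choice. AT2G44090, the neighbour of ARL in the RefSeq annotation, had an r of 0.18 with ARL over the WOL arrays and of -0.06 over all 15.

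The rest of the pathway was read from gene lists of the members' families, receptors and signalling, hormone synthesis, BES1 partners, growth targets and ethylene signalling. BRH1, BAT1 and BIN4 were added by name once the annotation was read, and all 3 have a probe set. With these, 7 of 71 other genes have a probe set named here. No relative of EXO in the EXORDIUM family, of ARL in the ARGOS family or of BIM1 among the BIM and BES1 genes is among the 7. Counts over the 7 thus rest in part on genes picked after the annotation was read. At each of the 4 times in WOL cells 0 of the 7 were called in limma, as were 0% of all probe sets. At an unadjusted p under 0.05 there were 2, 2, 2 and 0 of the 7, against 9.04%, 6.64%, 6.62% and 8.37% of all probe sets. Differences above 0 were found for 2, 4, 2 and 1 of the 7, against 43.6%, 42.3%, 39.9% and 45.9% of all probe sets. The median difference of the 7 was -0.24, 0.10, -0.52 and -0.29. BRL1, a brassinosteroid receptor gene of vascular tissue, had 8.3 and 12.3 at 2 h, called absent on both arrays, against 53.8 and 66.5 in the WOL control, where it was present on both. It did not pass the threshold (adjusted p = 0.651, limma). BRH1, a RING finger gene named for its response to brassinosteroids, had 163.9 to 233.7 at 0.5 h, against 336.2 to 370.4 in the WOL control, a log2 difference of -0.80 ± 0.34 (adjusted p = 0.544, limma).

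EXPA8, an expansin gene known to respond to brassinosteroids, had its highest WOL signals at 1 h, 357.7 and 215.9, against 174.2 and 40.7 (called absent) in the WOL control, and it was called absent on all 5 ATHB15 arrays. Its log2 difference at 1 h was 1.50 ± 0.55 (adjusted p = 0.725, limma). In ATHB15 cells BRH1 had 101.2 and 182.9 after BL, against 280.5 to 347.2 in the control, a difference of -1.08 ± 0.31 (adjusted p = 0.112, limma). BAT1, whose enzyme is known to acylate brassinosteroids, was absent on both ATHB15 BL arrays at 8.4 and 24.2, against 87.2 to 139.8 in the control, where it was present on 1 of 3. The BAT1 difference of -1.93 ± 0.67 did not pass the threshold (adjusted p = 0.199, limma).

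ARGOS proteins are also known to lower the response to ethylene, and 2 ethylene genes were measured. RTE1, which promotes signalling by the receptor ETR1, had 239.1 and 272.7 in ATHB15 BL 2 h against 78.3 and 80.9 in WOL BL 2 h. It was higher in treated ATHB15 cells by 1.51 ± 0.38 (adjusted p = 0.0171, limma). In that comparison 1 of the 7 genes was called higher (RTE1) and 1 lower (EXPA8, at 35.6 and 2.3 against 195.7 and 105.6), where 15% of all probe sets were called. RTE1 was also higher in the untreated ATHB15 line, by 1.11 ± 0.35, without passing the threshold (adjusted p = 0.117, limma). Its 2 h response differed between the lines by 0.39 ± 0.51 (adjusted p = 0.818, limma). Between the untreated lines EXPA8 was the 1 of 7 called, lower in the ATHB15 control (adjusted p = 0.0158, limma), where 2.91% of all probe sets were called. At 2 h RTE1 differed from the control by -1.03 in WOL cells (adjusted p = 0.681, limma) and by -0.64 in ATHB15 cells (adjusted p = 0.456, limma). A relation between ARL and RTE1 was not tested. EIN3, the transcription factor of ethylene signalling, had 607.8 to 618.6 at 0.5 h against 434.5 to 452.6 in the WOL control, a difference of 0.45 ± 0.30 (adjusted p = 0.644, limma). BIN4, named for brassinosteroid insensitivity and part of a DNA topoisomerase complex, had differences of -0.48 to 0.61 over the 10 comparisons, and none passed the threshold in limma.

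**Figure D5:**
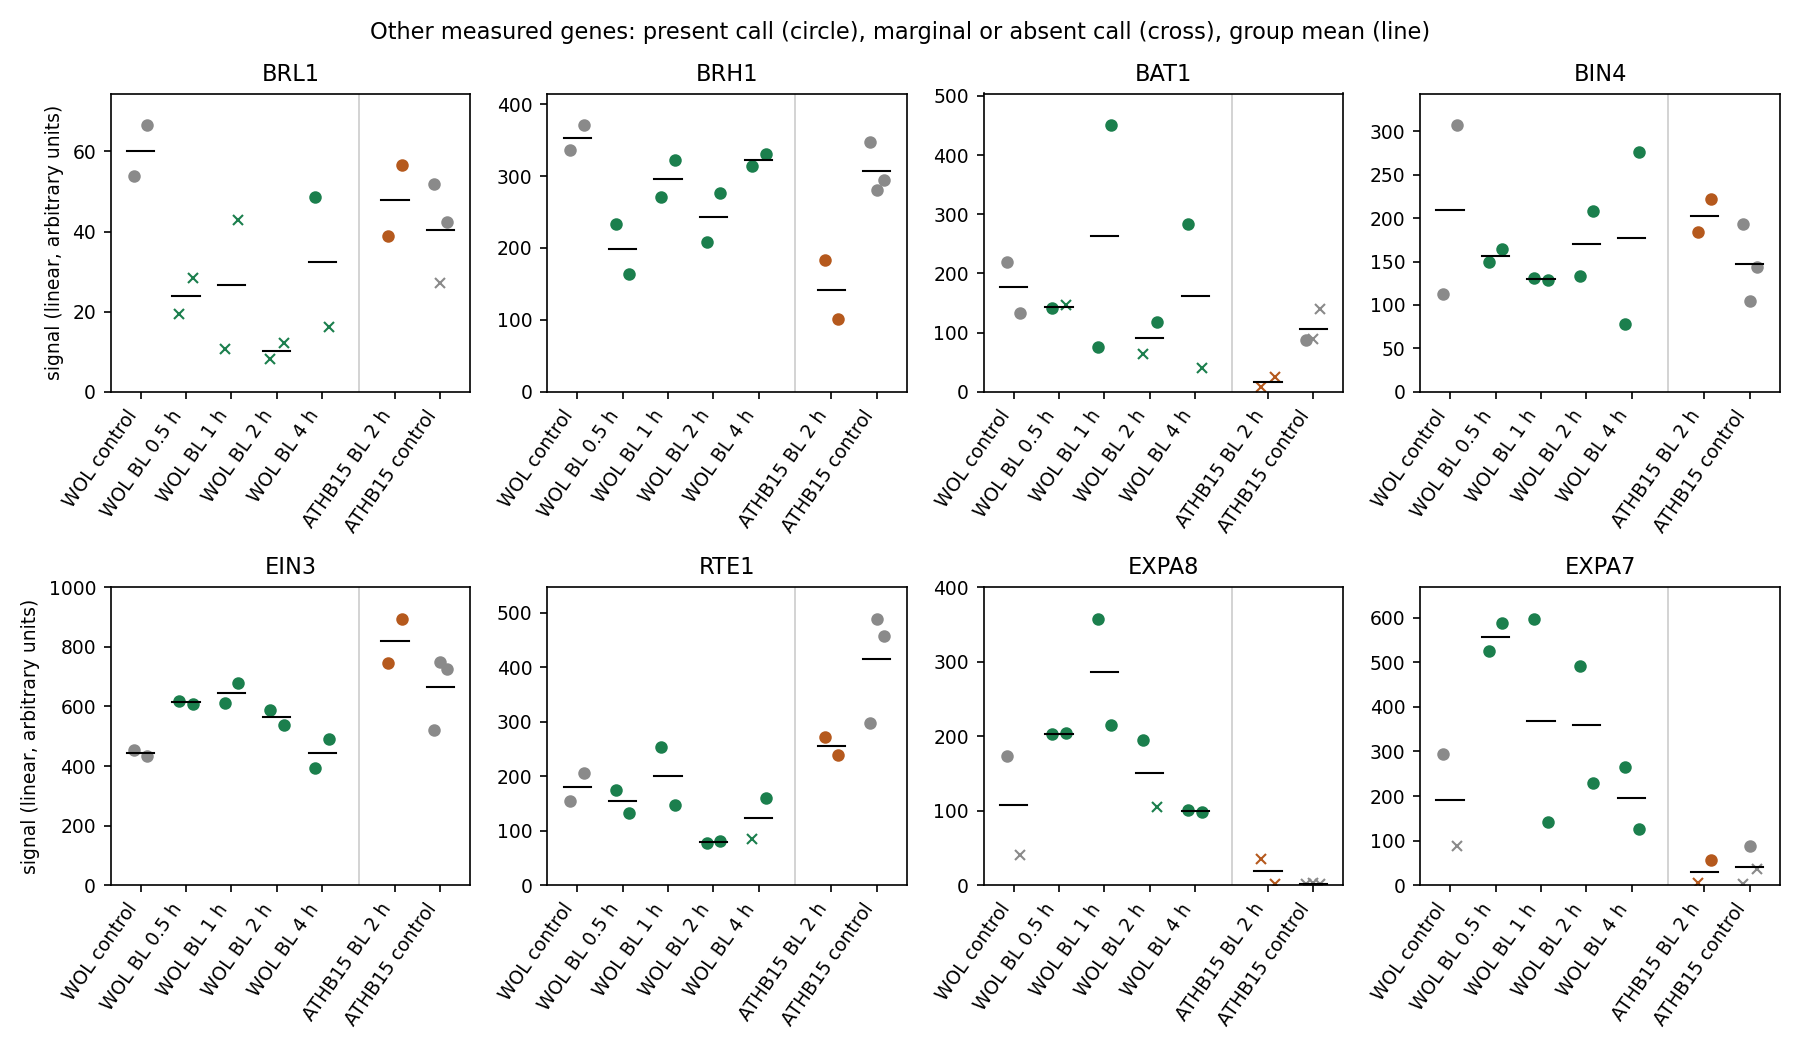
Signal (y axis, linear arbitrary units) of 7 other pathway genes and of the root hair gene EXPA7 on each array (points) by group (x axis), with group means as lines; circles mark present calls and crosses marginal or absent calls. BRL1 has no present call at 0.5, 1 or 2 h in WOL cells, and EXPA8 has none in ATHB15 cells.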

How the data were processed

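The deposited values are 1 signal (intensity) per probe set and array on a linear scale, with a detection p-value and a call of presence (present, marginal or absent), per the file headers. Per the labels, RNA of sorted protoplasts was amplified and labelled by the 2-cycle Affymetrix protocol. The deposited signals have the same trimmed mean on every array (250.0), so they had been scaled to it. Software and version are not given in the sources used here. Both deposited tables agreed in all 342150 signals compared. The header of the ATHB15 control 2 array carries a stray second name, and its signals are identical to that sample's in the other table.

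Of 22810 probe sets, 64 controls were left out. Differences of log2(signal + 16) were fitted with limma 3.58.1 (R 4.3.3) over all 15 arrays and 7 groups, with Benjamini-Hochberg adjustment over 22746 probe sets per comparison and a threshold of 0.05, two-sided. Arrays in such small numbers limit the precision. The platform annotation names 1 gene for 13513 probe sets and several for 503, and genes were named from probe sets with 1 gene only. The files name no genome build, so no coordinates are given. Correlations used 100000 permutations (scipy 1.17.1), two-sided, with Benjamini-Hochberg adjustment over 12 relations. The script was tested on simulated data.

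Members and gene lists were chosen with earlier results of these data known. BRH1, BAT1 and BIN4 were added by name once the annotation was read. The rule was to name every member, at most 4 further pathway genes with the smallest p in a comparison, and, for likeness, 5 genes over 15 arrays and 3 over the 10 WOL arrays. EIN3 and BIN4, and the genes of that added list, were named to account for all 7 measured. Alternatives were other offsets, median centring, quantile normalization, a filter on present calls, fewer arrays in the fit, each array left out, a replicate block and RNA quality covariates.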

Additional observations from a re-analysis of the deposited data

How the results depend on the processing

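Of 441 differences of the members under alternatives, 421 kept their sign and 20 did not. The filter on present calls and fewer arrays in the fit cannot alter a difference, nor can the replicate block within the WOL line. Part of the 421 was thus fixed in advance. EXO and BIM1 kept a positive difference at each of the 4 times in WOL cells under every alternative run. Their 8 BL arrays all lay above both controls, so leaving out 1 array could not turn these signs. The count of members called was unchanged in 161 of 166 recomputed counts. The other 5 all concern ATHB15 BL 2 h minus WOL BL 2 h, where the count of 1 was 0 with the UBQ or the GAPDH ratio as a covariate (BIM1 at -1.71 and -1.28), and 0 to 1 when an array was left out (BIM1 at -1.62 to -1.33). The cause was not tested.

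With median centring the BIM1 difference of ATHB15 control minus WOL control was 0.20, with the UBQ ratio 0.0697 and with the GAPDH ratio 0.13, against -0.07 as reported. Centring shifted every difference of that comparison by 0.27, of ATHB15 BL 2 h minus WOL BL 2 h by 0.19, and of WOL BL minus WOL control by 0.08 to 0.17, so relative to the array medians EXO and BIM1 at 2 h stood at 1.09 and 0.97. With the GAPDH ratio ARL at 2 h was 0.0898, and the late minus early difference was -0.0352 for EXO and -0.0507 for BIM1. With 1 array left out, ARL ran from -0.15 to 1.00 at 0.5 h, -0.76 to 0.40 at 2 h, -0.25 to 0.91 at 4 h and -0.22 to 0.94 over all times. It ran from -1.36 to 0.33 in ATHB15 cells, -1.19 to 0.50 in the difference of responses and -0.40 to 1.29 between treated lines. EXO ran from -0.0922 to 0.37 late minus early and -0.70 to 0.0875 in ATHB15 cells, and BIM1 from -0.27 to 0.18 between controls.

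Same-numbered arrays deviated together in some pairs of groups and not in others: 4 of 10 pairs of WOL groups had a correlation over 0.1 (range -0.19 to 0.42), and the ATHB15 pairs had -0.04 and 0.06. The labels give no pairing, so the block is an alternative only. With the replicate block, which leaves ATHB15 control 3 without a partner, BIM1 between treated lines was -1.73 (adjusted p = 0.0175, limma), ARL was 0.28, and no member gained or lost a call. Over all probe sets the block gave 75 calls against 253 in ATHB15 cells, and 0 against 29 in the difference of responses. With 2 arrays per group, the 95% intervals of differences of single WOL BL times from the WOL control span 1.59 (BIM1) to 2.27 (ARL) on the log2 scale.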
